A study of Homo sapiens with 6 samples.

Results

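The 300 transcription start sites (TSSs) described here were those at which the anti-TY signal of tagged CFAP20 in excess of untagged cells lay furthest to the gene side, relative to the excess at the start. They were chosen by the densities themselves. At each TSS the WT average was subtracted from the TY-CFAP20 average, and a TSS was kept where the mean difference from 500 bp upstream to 500 bp downstream was above 0.3. The skew was the mean difference 500 to 1500 bp downstream, minus that 500 to 1500 bp upstream, divided by the difference at the TSS. Of 3000 TSSs with density values, 2169 were kept and the 300 with the highest skew were taken, which left 1869 other kept TSSs. The ChIP-seq values below therefore describe the choice, and only features that took no part in it (annotation, sequence, BrU-seq, DRIP and origins) say something further about the set.

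Anti-TY ChIP-seq was made in untreated RPE1 cells, an immortalised human retinal pigment epithelial line. Both groups were RPE1 iCas9 p53/puro-dKO cells and thus both lacked p53. One group was WT for CFAP20 with no TY tag, so that its signal was the background of the antibody, and the other was CFAP20-KO + TY-CFAP20, in which the knockout cells carried TY-tagged CFAP20. Each group had 3 samples. The labels do not say from how many clones the knockout and rescue cells came, nor which promoter drove the tagged protein. Less chromatin, and less Drosophila chromatin for the spike-in, went into the tagged reactions than into those of WT. The files hold 1 spike-in normalised average per group, every 10 bp to 5 kb on either side of the TSS, so there was no replicate error and no test of any value below. The read depth of the libraries is not given in these files. Neighbouring TY-CFAP20 values differed by steps such as 0.0425, 0.0667 and 0.1. If 1 such step is 1 fragment, the members' mean downstream density of 1.39 corresponds to between 13.9 and 32.8 fragments over a position. Of 10 pigment epithelium marker names looked for, the tables hold MITF and OTX2, and neither TSS was a member. Of 10 markers of other lineages they hold SFTPB and TNNT1, and neither was a member, so these counts say nothing on cell identity.

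CFAP20 is a conserved cilia and flagella associated protein that also occurs in the nucleus. RNA polymerase II starts at promoters that, for many human genes, lie in CpG islands, stretches rich in the CpG dinucleotide, and often starts in both directions from them. A gene can have several promoters, and the MANE Select transcript is the one that the human annotation projects have agreed on as its default, so the start of that transcript can differ from the TSS that a study lists.

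The sequence around 2 of the members shows how the listed TSS and the MANE Select start can lie in different DNA. Both were among the 4 highest in skew of those members whose MANE start lay 300 to 1500 bp downstream and whose windows hold at most 30 bases of untranslated exon. They were STC2, a secreted stanniocalcin, and TOR3A, a torsin family ATPase. Each line gives 120 bases before the start and 30 from it on, in hg38, read 5′ to 3′ along the gene, with every CpG in capitals.
STC2, listed TSS, chr5:173329474-173329623, minus strand: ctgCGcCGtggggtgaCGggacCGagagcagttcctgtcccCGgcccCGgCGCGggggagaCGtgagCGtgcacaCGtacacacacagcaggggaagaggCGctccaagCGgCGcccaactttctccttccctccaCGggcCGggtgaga
STC2, MANE start, chr5:173328385-173328534, minus strand: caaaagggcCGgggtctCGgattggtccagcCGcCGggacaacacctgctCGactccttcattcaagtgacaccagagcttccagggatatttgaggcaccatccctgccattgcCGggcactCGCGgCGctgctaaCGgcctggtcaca
TOR3A, listed TSS, chr1:179081257-179081406, plus strand: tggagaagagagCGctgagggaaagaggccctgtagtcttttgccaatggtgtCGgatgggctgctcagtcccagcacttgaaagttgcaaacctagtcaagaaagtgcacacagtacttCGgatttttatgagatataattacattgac
TOR3A, MANE start, chr1:179081950-179082099, plus strand: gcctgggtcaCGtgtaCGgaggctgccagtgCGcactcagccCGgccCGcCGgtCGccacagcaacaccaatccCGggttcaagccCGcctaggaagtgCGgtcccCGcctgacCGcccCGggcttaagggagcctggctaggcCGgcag
At TOR3A the listed TSS window held 3 CpG and the MANE start window, 693 bp further into the gene, held 14. STC2 was the other way round, with 16 CpG at the listed TSS and 10 at the MANE start 1089 bp downstream.

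At both genes the anti-TY density rose along the way from the first of these sequences to the second. At STC2 the TY-CFAP20 average was 0.749 upstream, 1.42 at the listed TSS and 2.66 downstream, where WT read 0.735, 0.946 and 1.14. TOR3A read 0.585, 1.27 and 1.79 against 0.621, 0.830 and 0.929. The other 2 of these 4 members were PARVA, the focal adhesion protein alpha-parvin, and PHAX, the adaptor for nuclear export of small nuclear RNAs. At PARVA the TY-CFAP20 average was 0.744, 1.47 and 2.24 against 0.903, 1.02 and 1.33 in WT. PHAX read 0.755, 0.935 and 1.56 against 0.747, 0.617 and 0.892. In all 4 genes the downstream window was the highest of the 3 in TY-CFAP20, and in WT as well, with a smaller rise.

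Upstream of the TSS the tagged cells showed no more signal than the untagged ones in the 300 TSSs as a whole. The mean TY-CFAP20 density was 0.798 from 1500 to 500 bp upstream against 0.806 in WT, a ratio of 0.990. At the TSS it was 1.37 against 0.815, and 500 to 1500 bp downstream it was 1.39 against 0.750, ratios of 1.68 and 1.86. The other kept TSSs read 0.992 against 0.753 upstream, 1.60 against 0.806 at the TSS and 1.08 against 0.806 downstream. The members thus had a lower start-site signal than the other kept TSSs (mean difference 0.551 against 0.789) and a higher one downstream (0.644 against 0.273). In the flanks, 4000 to 5000 bp away on either side, the mean difference was 0.119 in the members and 0.123 in the other kept TSSs. The members' upstream window, which took part in the choice, thus lay below their flanks.

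**Figure D1:**
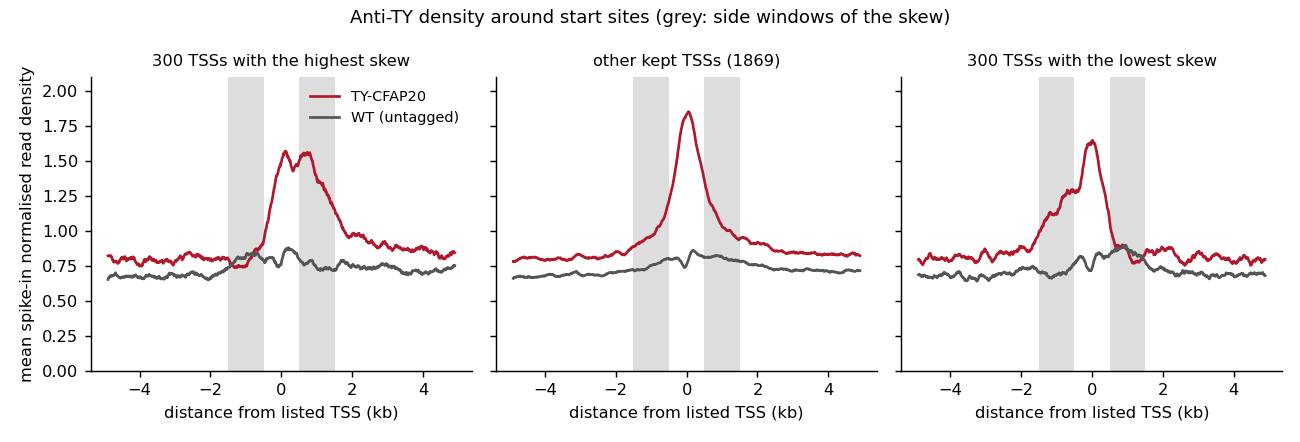
Mean spike-in normalised anti-TY density (y axis) against distance from the listed TSS in kb (x axis) for TY-CFAP20 (red) and untagged WT (grey), in the 300 TSSs with the highest skew, the other 1869 kept TSSs and the 300 with the lowest skew. Shaded bands mark the windows from 500 to 1500 bp on either side that entered the skew, where the highest set reads 1.39 downstream and 0.798 upstream in TY-CFAP20, and lines are group averages with no error to show.

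The members' mean difference stayed high across the downstream window by which they were chosen, which ends at 1500 bp. The highest smoothed difference within 1500 bp of each member had quartiles of 70 and 870 bp, so this shape is that of an average. The 300 TSSs with the lowest skew rose on the upstream side, with 0.393, 0.525 and 0.673 in steps from -1500 bp to the TSS. In steps of 500 bp from the TSS into the gene, the mean TY-CFAP20 minus WT difference was 0.653, 0.742, 0.550 and 0.268. The other kept TSSs fell over the same steps from 0.826 to 0.357, 0.192 and 0.163. The members' mean difference peaked 630 bp downstream at 0.799 and stayed above the midpoint between peak and flank from -0.23 to +1.45 kb. The other kept TSSs peaked at -20 bp at 1.08, with a span from -0.33 to +0.45 kb. Beyond 1500 bp in the gene the sets were closer, with means of 0.170 and 0.132 out to 5 kb. Most of this was also present away from genes' starts on the other side, where the means from -5000 to -1500 bp were 0.119 and 0.125.

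Most of the asymmetry was in the TY-CFAP20 average. Its downstream mean exceeded its upstream mean by 0.595, whereas that of WT differed by -0.0566, so that TY-CFAP20 made up 91.3% of the gap. Over all 3000 TSSs the values were 0.138 and 0.0340, so that TY-CFAP20 made up 132.8% of that gap and WT went against it. TY-CFAP20 was higher downstream than upstream at 297 of 300 members (99.0%) and WT at 106 (35.3%), against 66.3% and 55.5% of all 3000 TSSs. Upstream, WT was above TY-CFAP20 at 148 of 300 members (49.3%), against 28.0% of all 3000. These counts come from the contrast that chose the members. A difference of averages also selects on WT, and the members' WT density was 0.786 and 0.826 in the upstream steps within the skew window but 0.699 in the step beyond it. In the 300 TSSs with the lowest skew the same window on the gene side read 0.869 and 0.833 in WT.

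TY-CFAP20 reached 1.5 times WT downstream at 246 of the 300 members, where 34.2% of all 3000 TSSs did. Upstream it did so at 16 members, where 23.5% of all 3000 TSSs did. Both counts come from the contrast that chose the members, and nothing is read from them.

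The skew had no gap that set the members apart. Its median was 0.157 over the kept TSSs, with quartiles of -0.165 and 0.500, and 62.4% of kept TSSs were skewed to the gene side. The members ran from 0.782 to 4.13 with a median of 1.07, and 171 of them had a skew above 1. Skews below -0.782, as far on the other side, occurred at 109 kept TSSs. The last members inside the limit were SPAG4 at 0.785, RP11-17J14.2 at 0.783 and RP1-159A19.4 at 0.782, and the first outside were PPP2R1B at 0.780, PLA2G12A at 0.778 and ATAD1 at 0.777. These 6 TSSs cannot be told apart by their skew.

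**Figure D2:**
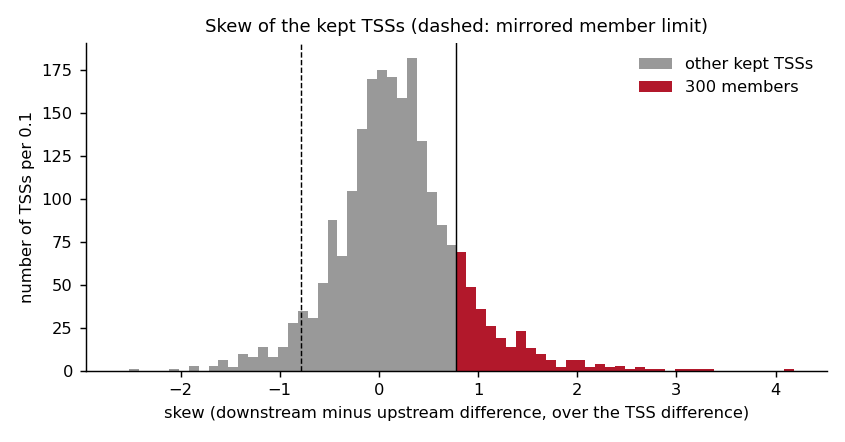
Number of kept TSSs per 0.1 of skew (y axis) against skew (x axis), with the 300 members in red and the others in grey. The solid line is the lowest member at 0.782 and the dashed line its mirror image, below which 109 TSSs lie, and the distribution runs on through the limit without a gap.

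The highest skew was that of HINT1, which encodes a nucleotide hydrolase. Its TY-CFAP20 density was 0.666 upstream, 1.09 at the TSS and 2.02 downstream, and WT read 1.11, 0.695 and 0.825. The summit, which is the highest smoothed difference within 1500 bp, was 900 bp inside the gene. TUBA1A, an alpha-tubulin, came next with 0.569, 1.16 and 1.22 against 1.24, 0.850 and 0.837 in WT. Its skew of 3.34 thus rested more on a WT density above TY-CFAP20 upstream than on signal downstream, where the difference was 0.388. TRA2B, a splicing regulator, also had more WT than TY-CFAP20 signal upstream (1.45 against 1.03), with 1.79 against 1.05 downstream.

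Among the 12 highest, STC2, DLK2, LBR and GLUL had a MANE start 300 to 1500 bp inside the gene. DLK2, a relative of the Notch ligand delta, read 0.507, 1.12 and 1.74 in TY-CFAP20 against 0.891, 0.605 and 0.531 in WT, with its summit at 1.31 kb and its MANE start at 1084 bp. LBR, the lamin B receptor of the inner nuclear membrane, read 0.868, 1.36 and 2.14 against 0.543, 0.914 and 0.720, with its summit at 890 bp and its MANE start at 817 bp. CDC6, which loads the replicative helicase at origins, had 0.729, 1.04 and 1.80 against 0.639, 0.627 and 0.571, with its summit at 1200 bp although its MANE start lay at 246 bp. GLUL, glutamine synthetase, had 0.840, 1.13 and 1.56 against 0.895, 0.722 and 0.480, with its summit at 620 bp and its MANE start at 416 bp. The rest of the 12 were the long non-coding gene RP11-1079K10.3, CDC42EP4, LURAP1 and the splicing factor USP39, with skews from 2.42 to 2.62.

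**Figure D3:**
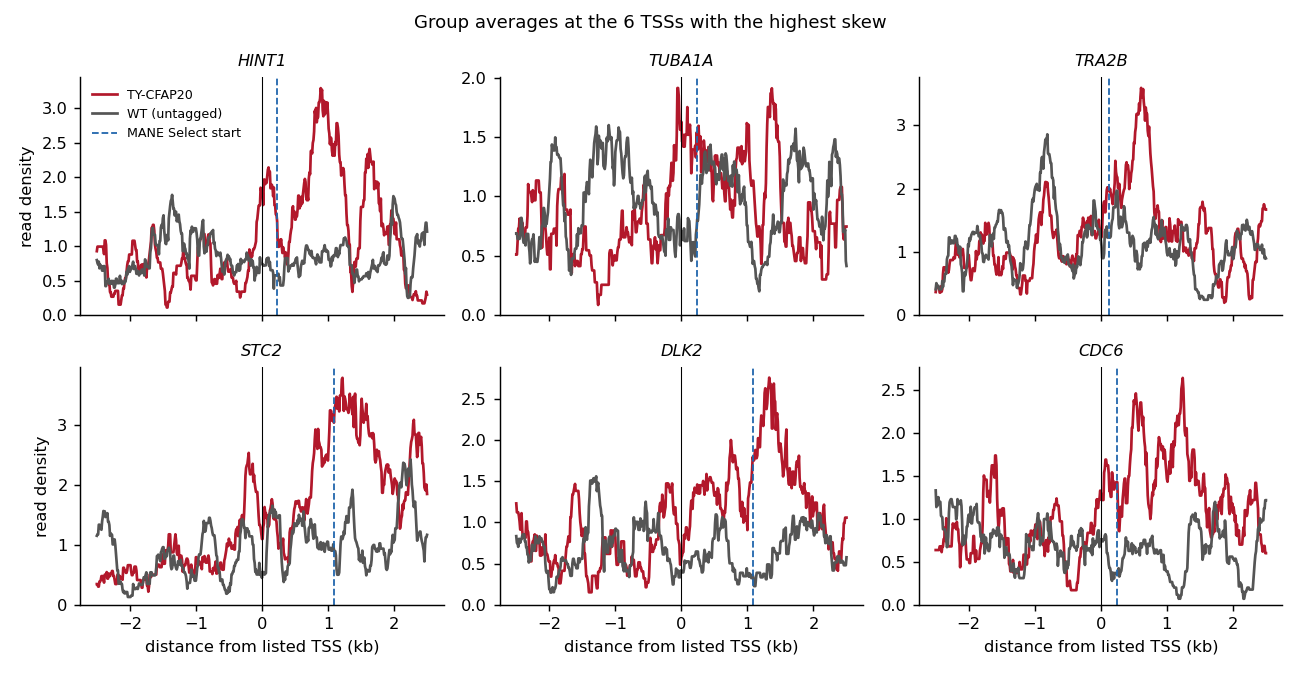
Group-average read density (y axis) of TY-CFAP20 (red) and WT (grey) against distance from the listed TSS in kb (x axis) at the 6 TSSs with the highest skew, with the listed TSS as a solid line and the MANE Select start as a dashed one. The highest smoothed TY-CFAP20 minus WT difference is 900 bp downstream at HINT1. It lies at 1.13 kb at STC2 and 1.31 kb at DLK2, with MANE starts at 1089 and 1084 bp, while TUBA1A shows WT above TY-CFAP20 upstream.

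The largest downstream difference was at MARVELD1, a membrane protein gene whose MANE start lay 6 bp from the listed TSS. TY-CFAP20 read 1.37 upstream, 2.23 at the TSS and 3.79 downstream, and WT stayed between 1.16 and 1.23. ENC1, a kelch protein, followed with 2.21 against 0.599 downstream, its summit at 690 bp and its MANE start at 696 bp. RND3, an atypical small GTPase, had 2.25 against 0.872 and the non-coding RP11-432J24.5 had 2.77 against 1.44. MARVELD1 and RP11-432J24.5 both lie on chromosome 10, and whether copy number adds to such absolute differences was not tested. A choice without chromosome 10 and without stretches low in TY-CFAP20 over WT shared 283 of the 300 members. The largest difference at the TSS itself was that of PDLIM5, an actin-binding LIM protein, with 2.01 against 0.735 at the TSS and 1.74 against 0.526 downstream. MCL1, an anti-apoptotic BCL2 relative, had 1.96 against 0.909 and then 1.91 against 0.804. At PDLIM5 and MCL1 the density was about as high 1 kb into the gene as at the start, and upstream the 2 averages differed by less than 0.1.

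The position of the MANE start divided the members. It was known for 275 of the 300, and in 51 of these (18.5%, 95% Wilson interval 14.4 to 23.6, counting error only) it lay 300 to 1500 bp downstream of the listed TSS. Among the other kept TSSs this held for 87 of 1703 (5.11%), and among all 3000 for 193 of 2521 (7.66%). It lay equally far upstream in 0 of 275 members, against 43 of 1703 other kept TSSs (2.52%). The MANE start was within 100 bp in 173 members (62.9%, against 73.0%), 100 to 300 bp downstream in 37, 100 to 300 bp upstream in 6, and beyond 1500 bp downstream in 6 and upstream in 2. Seen from the other side, 36.96% of the 138 kept TSSs with a MANE start 300 to 1500 bp downstream were members, where 13.8% of all kept TSSs were. A listed TSS need not be an annotated start. An annotated start of the same gene lay within 100 bp at 249 of 300 members (83.0%). This held for 87.9% of other kept TSSs, 89.0% of the 300 with the lowest skew and 86.2% of all 3000.

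In those 51 members the summit was nearer to the MANE start than to the listed TSS in 40, at a median distance of 196 bp against 600 bp. With the windows moved to the MANE start, the mean difference at the centre was 0.895 in place of 0.556, the mean peak moved from 630 bp to 10 bp, and the skew of the mean profile was 0.124 in place of 1.30. These values describe the choice, since a TSS was taken for its signal 500 to 1500 bp downstream, where this start also lies. In the 87 other kept TSSs of the same kind the summit was nearer to the MANE start in 55, at a median of 204 bp against 350 bp. There the difference at the centre was 0.761 from the MANE start and 0.784 from the listed TSS, and the skew was -0.187 and 0.201. Beside STC2, DLK2, GLUL and LBR the 51 included USP47, a deubiquitinase, and PSMD2, a subunit of the proteasome's regulatory cap. Their summits lay further into the gene than the MANE start, at 990 bp against 549 bp in USP47 and at 830 bp against 532 bp in PSMD2.

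In the 173 members whose MANE start was within 100 bp, at a median of 10 bp from the listed TSS, both starts give nearly the same windows by construction. From the listed TSS the mean difference was 0.555 at the centre and 0.583 downstream. Their median summit was 320 bp downstream, against 0 bp in the 1244 other kept TSSs of this kind. LURAP1, USP39, MARVELD1, RND3, MCL1 and PDLIM5 belong here.

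**Figure D4:**
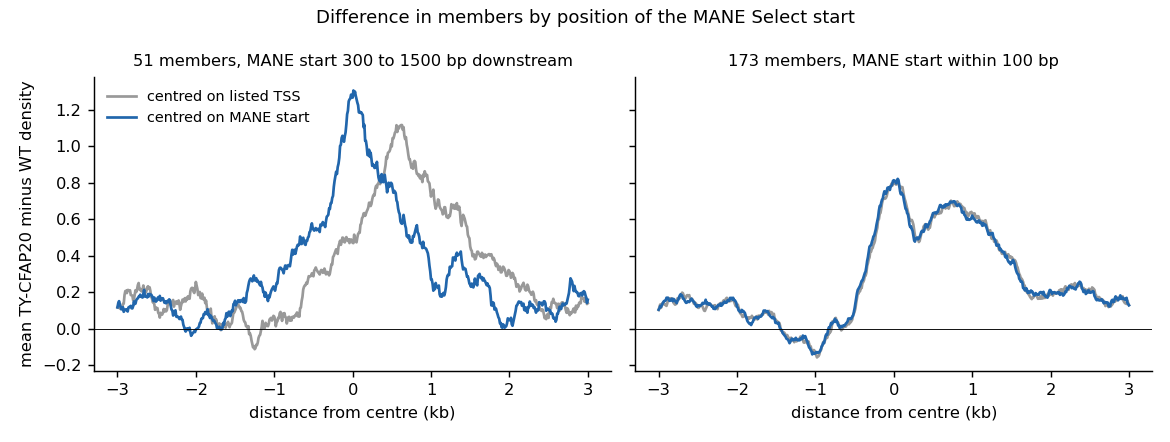
Mean TY-CFAP20 minus WT density (y axis) against distance in kb (x axis), centred on the listed TSS (grey) or on the MANE Select start (blue), for 51 members with that start 300 to 1500 bp downstream and 173 with it within 100 bp. On the left the peak moves from 630 bp to 10 bp when centred on the MANE start, and on the right, where the starts lie a median of 10 bp apart, the lines nearly coincide by construction.

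The DNA on the gene side held more CpG in the members than in the other kept TSSs by the median, with overlap. The median count was 16 CpG from 1500 to 500 bp upstream, 64 at the TSS and 39 from 500 to 1500 bp downstream. The other kept TSSs had 21, 76 and 26, and the 300 with the lowest skew had 23, 68 and 21. The downstream quartiles were 23 and 64 in the members and 17 and 41 in the other kept TSSs. The median of downstream minus upstream was 17.5 CpG in the members, 5 in the other kept TSSs and -1 in the lowest 300. More CpG downstream than upstream was found at 232 of 300 members (77.3%), 61.5% of other kept TSSs and 62.0% of all 3000. GC content downstream was 55.6% in the members and 48.9% in the other kept TSSs. Per 100 bp, the members held 6.61 CpG around 650 bp downstream and 2.54 around 650 bp upstream, whereas the other kept TSSs held 4.82 and 3.36.

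**Figure D5:**
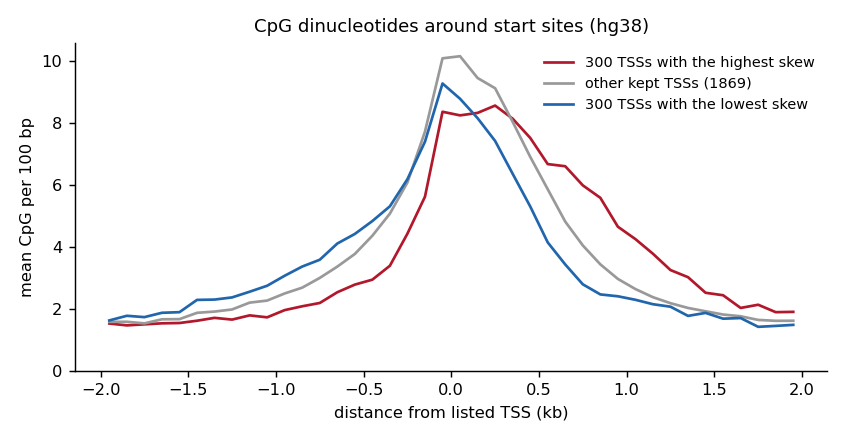
Mean number of CpG dinucleotides per 100 bp of hg38 (y axis) against distance from the listed TSS in kb (x axis) for the 300 members (red), the 1869 other kept TSSs (grey) and the 300 with the lowest skew (blue). The red line is lower than the grey at the start and upstream and higher from about 350 bp into the gene, with 8.14 against 8.04 there and 6.61 against 4.82 around 650 bp.

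CpG content and the MANE start went together, and the CpG difference was smaller without the latter. The 51 members with a MANE start 300 to 1500 bp downstream had a median of 13 CpG upstream and 66 downstream, and 49 of them had more downstream. The 173 with it within 100 bp had 19 and 33, and 123 of them had more downstream. For the other kept TSSs with the MANE start within 100 bp the medians were 20 and 26. Within the 173 there were also members with little CpG on either side, such as LURAP1 with 11 upstream and 17 downstream, which has a protein-coding neighbour, POMGNT1, starting at -96 bp on the other strand. Its TY-CFAP20 density was 0.594 upstream, 1.05 at the TSS and 1.12 downstream, against 1.04, 0.703 and 0.719 in WT. For comparison, the 1 kb windows of MARVELD1 held 20 CpG upstream and 91 downstream, and those of LBR 14 and 128. The non-coding LINC01204 was among the members without more CpG downstream, with 54 upstream and 3 downstream.

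Across TSSs the gene-side CpG went with the tagged signal more than with the untagged one, also where no TSS was chosen by skew. All 3000 TSSs were put in 5 classes of 600 by CpG downstream minus upstream, with class medians of -16.5, -3, 5, 17 and 43. TY-CFAP20 density downstream minus upstream averaged -0.0400, 0.0731, 0.0882, 0.192 and 0.375 in these classes. The WT values were 0.0171, 0.0267, 0.0267, 0.0445 and 0.0550. TY-CFAP20 minus WT was higher downstream than upstream at 44.2% of TSSs where the CpG difference was lowest and 78.7% where it was highest. The share of kept TSSs that were members was 6.45%, 11.3%, 10.6%, 12.9% and 27.9% over classes made in the same way among them. Spearman's rank correlation of skew with the CpG difference was 0.317 over the 2169 kept TSSs, which share the same libraries, and with the GC difference it was 0.343. The first was 0.251 over TSSs with a MANE start within 300 bp and 0.181 with windows centred on the MANE start. Whether base composition itself affects the recovery of fragments was not tested. The WT values above come from reactions with more chromatin and spike-in, so they need not measure it in the tagged libraries.

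The same held for the MANE start without any choice by skew. At the 193 TSSs with it 300 to 1500 bp downstream, TY-CFAP20 averaged 0.434 more downstream than upstream and WT 0.0700 more. At the 51 with it 300 to 1500 bp upstream, TY-CFAP20 averaged -0.243 and WT -0.0322. At the 1745 with it within 100 bp the values were 0.146 and 0.0373. The TY-CFAP20 difference thus followed the side of the MANE start in sign, and the WT difference did so at a smaller size.

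Members had fewer opposite-strand starts of other genes behind them. A start of another gene on the opposite strand lay within 1500 bp upstream at 33 of 300 members (11%, interval 7.94 to 15.0), against 381 of 1869 other kept TSSs (20.4%) and 74 of the 300 with the lowest skew (24.7%). Over all 3000 TSSs it was 16.0%. For protein-coding neighbours the shares were 4.0%, 10.1% and 13.7%, and 8.17% over all 3000. The count was uneven among the members. It was 29 of the 173 with a MANE start within 100 bp (16.8%, against 18.6% of the other kept TSSs of that kind). It was 2 of the 51 with that start 300 to 1500 bp downstream, against 21 of 87 other kept TSSs (24.1%), and 2 of the remaining 76. On the downstream side, within 1500 bp, an opposite-strand start of another gene lay at 10.7% of members, 7.97% of other kept TSSs and 7.6% of all 3000. Another start of the same gene lay 300 to 1500 bp downstream in 133 of 298 members (44.6%, against 35.4%) and as far upstream in 26 (8.72%, against 13.7%). SOX9, a transcription factor of cartilage and gonads, and COX7B, a subunit of cytochrome c oxidase, are members with an opposite-strand start upstream. These are SOX9-AS1 at -210 bp and MAGT1 at -167 bp from the TSS.

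Transcription was somewhat higher in the members. BrU-seq, which labels nascent RNA with bromouridine, had a median over the gene body in WT of 3.58 in the members and 2.80 in the other kept TSSs, in the units deposited, whose scaling is not given. The quartiles were 1.41 and 10.1 against 1.38 and 7.14, so the sets overlapped almost wholly, and 168 members (56.0%) were above the median of the kept TSSs. Over 5 classes of BrU-seq the share of kept TSSs that were members was 13.1%, 10.6%, 13.2%, 14.3% and 18.0%, and Spearman's rank correlation of skew with BrU-seq was 0.0764. The highest members were MCL1 at 123.1, the nuclear envelope gene NRM, C15orf52 at 98.3, DLGAP1-AS1 at 91.4 and SOX9 at 89.9. The lowest were CHST15 at 0.711, GPRC5B at 0.712 and PROM2 at 0.714. CHST15, a chondroitin sulfotransferase gene, had 1.68 against 0.874 downstream. Its BrU-seq value was near the lowest of all 3000 TSSs, 0.693, and without the scaling it is low only within these TSSs.

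R-loops and gene length differed less by the median. DRIP, which captures DNA-RNA hybrids, had a median at the TSS of 607 in the members and 542 in the other kept TSSs, with a rank correlation of 0.0276 with skew. The order turned with side windows of the same length set 250 bp nearer to the TSS, which gave 527 in the members and 561 in the others. C15orf52 at 14724 and YPEL4 at 13240 were the highest members. Their median gene length was 20650 bp against 21769 bp, and the rank correlation of length with skew was 0.0294. The members ran from RPP25 at 3049 bp, a subunit of RNase P, to TNS3 at 306991 bp, a tensin. An origin centre from the deposited origin list lay within 10 kb of 9.0% of members, 7.17% of other kept TSSs and 6.57% of all 3000. The members had the higher share in 15 of 16 alternatives. The exception was 7.33% against 7.44% where the skew was not divided by the TSS difference. Within 10 kb the origin lay upstream at 25 members (8.33%) and downstream at 2 (0.667%). Those shares were 6.42% and 0.749% in the other kept TSSs, and 5.73% and 0.833% over all 3000. RND3 had an origin centre at -1807 bp and DYSF had 1 at +2.78 kb, counted along the gene.

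Members came from many kinds of gene. Counts for each list are set against the 13.8% of kept TSSs that were members, and with so few genes a list they describe these genes only. Of 10 kept genes for matrix, adhesion and cytoskeleton, 4 were members, namely TUBA1A, LOX, TGFBI and ANXA1. LOX, which crosslinks collagen, had 1.55 against 0.924 downstream and 0.759 against 1.02 upstream. TGFBI, a secreted matrix protein, had only 0.843 against 0.562 downstream but 0.557 against 0.868 upstream. Of 24 kept ubiquitin and proteasome genes 5 were members, among them USP47, PSMD2 and RNF4, a SUMO-targeted ubiquitin ligase (1.96 against 0.714 downstream). Of 18 mitochondrial respiration genes 4 were, and of 15 immediate-early genes 3 were, namely EGR2, MCL1 and MAFF. EGR2, a zinc finger factor induced by growth signals, read 1.01, 1.55 and 1.93 in TY-CFAP20 against 0.899, 1.11 and 1.07, with its MANE start 2801 bp downstream.

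Zinc finger ZNF genes had 3 members of 81 kept and solute carriers 3 of 32. Splicing and RNA binding had TRA2B and SFPQ of 19 kept, origin licensing and replisome CDC6 of 16, RNA polymerase II and elongation POLR2K of 6, and R-loop factors RNASEH2B of 5. SFPQ, a paraspeckle protein, had 1.45 against 0.720 downstream and 0.964 against 0.933 upstream. POLR2K, a small subunit shared by the RNA polymerases, had 0.303 against 1.02 upstream and only 0.986 against 0.815 downstream, so its skew of 1.63 came from the upstream side. RNASEH2B, a subunit of the nuclease that removes RNA from hybrids, had 1.16 against 0.648 downstream and a BrU-seq value of 1.30. Ribosome and translation genes had 0 members of 16 kept, and heat shock (6 kept), Mediator, chromatin modifiers and cilium genes (5 kept each) had 0 as well. NR2F1, an orphan nuclear receptor, and CEBPG were 2 members of 18 signalling factors. NR2F1 had 2.68 against 1.52 downstream, with 15 CpG upstream and 130 downstream. Antisense RNA genes had 5 members of 26 kept and long intergenic non-coding genes 3 of 24. Histone genes had 1 of 2, and no small nucleolar RNA host gene was measured. Among the non-coding members PGM5P4-AS1 had 1.66 against 0.648 downstream and DLGAP1-AS1 1.65 against 0.734. Members lay on 23 chromosomes, from 2 on chromosome 21 to 35 on chromosome 1.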

How the data were processed

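Spike-in normalised read densities, a signal every 10 bp around 3000 TSSs, were deposited by the authors as 1 average per group, per the file headers. The submitters' processing notes list R 4.0.5, HOMER 4.8.2, the mappers BWA 0.7.17 and STAR 2.7.7a, SAMtools 1.11 and Trim Galore 0.6.5, beside the builds hg38 (human) and BDGP6 (Drosophila), without saying which tool made which value. BrU-seq and DRIP signal and a ratio of CFAP20 over WT were deposited with each TSS, per the file headers, with no scaling given. Of 9944 TSSs in the deposited coordinate list, 3000 have densities.

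From these values, Python 3.11.15, numpy 2.4.6, pandas 2.3.3 and scipy 1.17.1 gave window means over -1500 to -500, -500 to +500 and +500 to +1500 bp, and the highest difference within 1500 bp after a running mean of 21 positions. Gene starts came from GENCODE version 44 and bases from hg38, and some sequences are not reported here. Intervals on shares are 95% Wilson intervals. With averages only, no test across samples was possible. The code for the choice of TSSs was checked on simulated densities with signal planted on either side. That check cannot say how many members noise alone would give. The members and lists were chosen with earlier results of these data known. Named genes were the 12 members highest in skew, the 3 nearest the limit on either side, the extremes of TSS difference, downstream difference, BrU-seq, DRIP, length and origin distance, and the first 3 of each of 20 gene lists. Genes named for their MANE start or printed sequence, and further members of a list, were chosen after their values were seen. In all, 14 planned and 2 added alternatives to the choice were run.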

Additional observations from a re-analysis of the deposited data

How the results depend on the processing

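No paired analysis was possible because the files hold group averages, although the labels give both groups the same replicate numbers, and leaving out single replicates was not possible for the same reason. The choice of members depended on its settings. Of the 300 members, 151 were shared with the choice at a minimum difference of 0.5, 175 after scaling to the flanks of all TSSs, 162 after scaling to the flanks of 11 neighbours, 156 from TY-CFAP20 alone and 193 without division by the TSS difference, and a list of 150 shared 150 by construction. The median CpG difference stayed above that of the other kept TSSs in 16 of 16 alternatives, from 14 to 25, the last from TY-CFAP20 alone. The median BrU-seq value was higher in 16 of 16 (2.91 to 4.07) and the share with an opposite-strand start upstream lower in 15 of 15. That share rose to 15.33% with flank scaling, 15.33% for listed TSSs within 100 bp of an annotated start, and 15.33% in an alternative chosen after seeing the data that kept TSSs with a MANE start within 300 bp, where the other kept TSSs had 18.7%.

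The share with a MANE start 300 to 1500 bp downstream was 13.77% with side windows to 2500 bp, 13.77% at a minimum of 0.5, 13.95% in 600 TSSs, 13.87% and 14.08% with the flank and local scalings, and 11.72% for listed TSSs within 100 bp of an annotated start, each above the other kept TSSs. It was 5.33% with windows centred on the MANE start, against 8.57% in the other kept TSSs, an alternative also chosen after seeing the data, whose construction removes the offset. The causes of the other changes were not tested.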

Other observations

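In the authors' deposited table, a ratio of CFAP20 over WT is listed for each TSS, with no assay named in its header. Its median in the authors' deposited table was 1.24 over the 300 members and 1.19 over the 1869 other kept TSSs.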
